A study of Mus musculus with 20 samples.

Results

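Epididymal fat of male C57BL6/J mice on a high-fat diet for 6 days was compared with the same fat pad after 4 days of that diet. The comparison holds 8 of the 20 RNA-seq libraries of the study, 4 from each day, chosen by their labelled day, and every mouse in it had been switched from chow to the high-fat diet. The labels call the libraries biological replicates, 1 tissue RNA sample each, and the other 12 come from mice on chow (day 0) or after 2 or 14 days of high-fat feeding. The comparison asks what differs between neighbouring time points of early feeding, and how far the answer depends on the libraries labelled day 4 replicate 1 and day 6 replicate 4. Age and housing are not given in the sources used here, and whole fat pads mix adipocytes with vessel, stromal, mesothelial and immune cells, so fewer cells of a type and less RNA per cell cannot be told apart.

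White fat stores surplus energy as triglyceride in adipocytes, which enlarge when dietary fat rises. The pad also holds progenitors, endothelial cells and macrophages that can divide, and a collagen-rich matrix that is rebuilt as the tissue grows. Genes of DNA replication and mitosis are transcribed mainly in cycling cells, so their level in tissue RNA tracks how much cycling-cell RNA it contains, while Adipoq, Cfd and Pck1 are made by mature adipocytes.

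Levels are given as CPM, read counts scaled to a common library total with TMM factors (a correction for library composition), listed for replicates 1 to 4. A log2 change is day 6 minus day 4, so positive values are higher on day 6, and each carries its standard error (SE). A gene was called when the p-value of edgeR's quasi-likelihood F test, adjusted by the Benjamini-Hochberg method over all tested genes, was under 0.05. CPM is not scaled by gene length, so levels are compared between libraries and not between genes.

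The day 4 libraries held 4578703 to 16274913 reads on genes and the day 6 libraries 11418864 to 32363044, with the smallest totals in day 4 replicates 2 and 3 and the largest in day 6 replicate 4. Mitochondrially encoded RNA took 4.59% to 7.13% of the reads of the 8 libraries. Mature adipocyte markers were abundant in every library, at a summed 33650.2 to 58557 CPM on day 4 and 44812 to 79056 CPM on day 6. Of 15 listed markers of the neighbouring epididymis and other ductal epithelium, 5 passed the low-count filter. These 5 summed to at most 10.7 CPM, in day 6 replicate 3, where Lrp2 alone had 9.40 CPM. The defining epididymal genes Crisp1, Defb1, Lcn5 and Adam7 had 0 reads in all 8 libraries.

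Both named libraries stood nearer to the other day than to their own. Across 15254 genes, log2 CPM of day 4 replicate 1 correlated with the other day 4 libraries at 0.961 to 0.972 and with the day 6 libraries at 0.977 to 0.987 (a description across genes, which are not independent replicates). For day 6 replicate 4 the mean correlation was 0.983 with day 4 replicates 2 to 4 and 0.976 with day 6 replicates 1 to 3. Each library was then placed by the genes called in a fit that held neither it nor these named libraries. At 13.2% of 2249 genes day 4 replicate 1 lay nearer the mean of its own day, and for day 6 replicate 4 the share was 25.1% of the same genes. The other 6 libraries lay nearer their own day at 80.2% to 93.7% of the genes called without them. The libraries are used below under the labels they carry. Whether their labels were exchanged or these mice differed from the rest of their day cannot be told apart in these files, and every value over all 8 libraries carries that doubt.

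**Figure D1:**
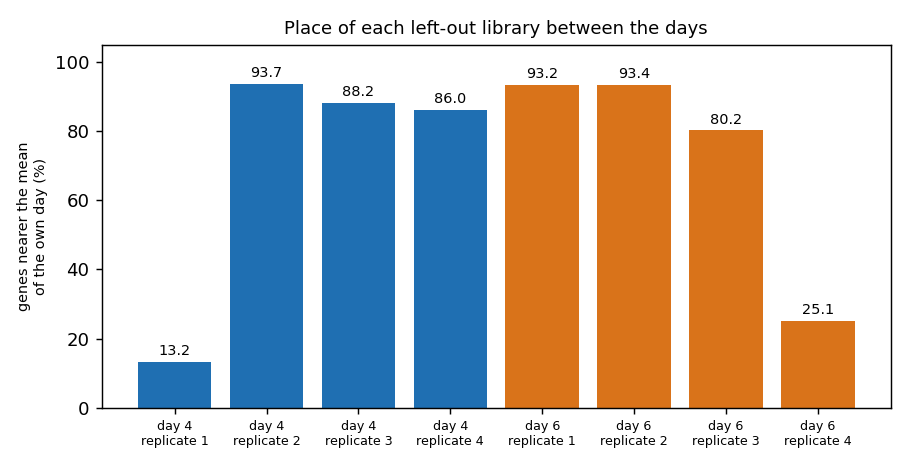
Bars give, for each library of days 4 and 6, the percentage of genes at which it lies nearer the mean of its own day than of the other day, over the genes called in a fit that did not hold it. Day 4 replicate 1 (13.2%) and day 6 replicate 4 (25.1%) stand below the other 6 libraries, which reach 80.2% or more.

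With all 8 libraries, no gene passed the threshold. The fit over all 20 libraries tested 15254 genes and called 0 (0%), the smallest adjusted p being 0.240, while 2492 genes (16.3%) had an unadjusted p under 0.05, 1322 of them higher and 1170 lower on day 6. DESeq2 called 53 genes in the same libraries, 48 higher and 5 lower. limma-voom called 0 and, with weights that lower the influence of libraries that vary more, 2046 (876 higher, 1170 lower), where day 4 replicate 1 and day 6 replicate 4 had the lowest weights of the 8 libraries. Without day 4 replicate 1 edgeR called 737 genes, 361 higher and 376 lower, and without day 6 replicate 4 it called 414, 123 higher and 291 lower. Leaving out any other single library of the 2 days left the count at 0.

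Without both libraries, day 6 replicates 1 to 3 against day 4 replicates 2 to 4, 2249 of 15390 tested genes (14.6%) were called, 1020 higher (6.63%) and 1229 lower (7.99%). These libraries were singled out with their values known, so this count describes how much the comparison rests on them, its p-values are too small, and it is no independent evidence of a difference between the days. Of the 2249 genes, 2240 were tested with all 8 libraries, and 2239 of those had the same sign there. All 8 include the libraries on which these genes were called, so agreement in sign was largely fixed in advance. The median absolute log2 change of the called genes was 0.79 without both libraries, where they were selected, and 0.46 with both. Only 222 (9.87%) separated the 2 days with no overlap among all 8 libraries, against 6.67% of all 15254 genes tested. Leaving out 1 more library gave 1308, 1452 and 1411 calls for day 4 replicates 2, 3 and 4, and 1241, 1379 and 2035 for day 6 replicates 1, 2 and 3. Of the 123 genes named below that were called here, 68 kept the call in every one of the 12 to 15 alternative settings run for each, and 55 lost it in at least 1. Losses are given below for some of those 55 only, so a call printed without one need not be stable. Counts of called list members are to be read against the 6.63% of all tested genes called higher and the 7.99% called lower. Where a group of libraries held at most 3 reads of a gene, no fold is given. Below, "the 8-library comparison" keeps every library and "the 6-library comparison" leaves out both, and "rose" and "fell" are used of genes called in the latter alone.

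**Figure D2:**
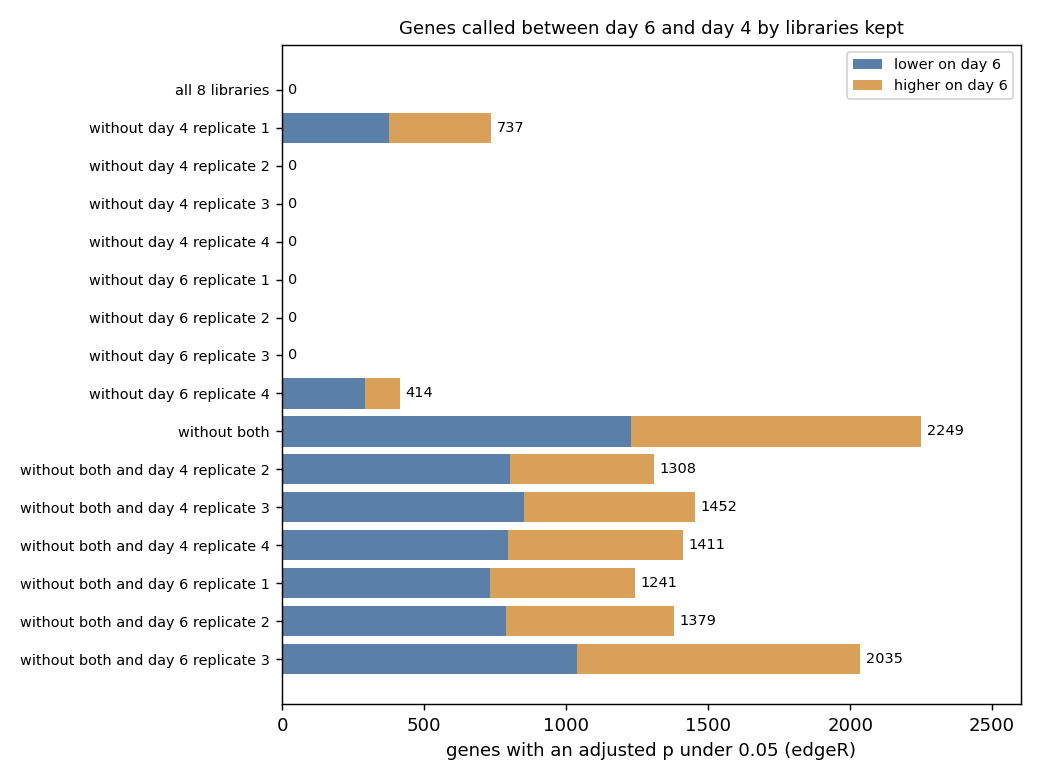
Bars count the genes with an adjusted p under 0.05 (edgeR) between day 6 and day 4, split by direction, for all libraries and for fits that leave libraries out. The count is 0 with all 8, 737 without day 4 replicate 1, 414 without day 6 replicate 4, and 2249 without both.

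Cell division genes differed most in the 6-library comparison. All but 1 of the 52 measured genes of mitosis and cytokinesis fell, with a median log2 change of -2.83, and 34 of 40 DNA replication and S phase genes fell, with a median of -1.32 and none higher. Over all tested genes the median was 0.01. With all 8 libraries the medians were -1.45 and -0.73, and the same 52 and 40 genes gave 0 calls. Without overlap, 1 S phase gene (2.5%) and no mitosis gene (0%) separated the days with day 6 lower, where 3.07% of all genes did.

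Upstream sequences are shown for 3 of these genes, taken by smallest p in the 6-library comparison. Only called members of the division and cholesterol lists with a single listed start and a motif match could be taken. The sequences shown were therefore bound to hold a motif match. They are the 250 bases before the annotated start, 5′ to 3′ on the gene's strand, from RefSeq annotation of GRCm38.p6, with motif matches on either strand in capitals: the CCAAT box (CCAAT), an E2F-like element (TTCCCGC or TTGGCGC), the cell cycle homology region CHR (TTTGAA or TTTAAA) and a sterol element core (TCACCCC). Cenpe, at chr3:135212313-135212562 on the plus strand, encodes a mitotic kinesin at the kinetochore. Rrm1, at chr7:102441445-102441694 on the plus strand, encodes the large subunit of ribonucleotide reductase, and Mcm3, at chr1:20820313-20820562 on the minus strand, a subunit of the replicative helicase.
Cenpe: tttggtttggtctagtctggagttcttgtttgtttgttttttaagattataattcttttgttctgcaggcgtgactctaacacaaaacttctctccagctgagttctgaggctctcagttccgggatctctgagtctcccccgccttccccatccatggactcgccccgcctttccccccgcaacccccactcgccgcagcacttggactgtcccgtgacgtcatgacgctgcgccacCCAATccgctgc
Rrm1: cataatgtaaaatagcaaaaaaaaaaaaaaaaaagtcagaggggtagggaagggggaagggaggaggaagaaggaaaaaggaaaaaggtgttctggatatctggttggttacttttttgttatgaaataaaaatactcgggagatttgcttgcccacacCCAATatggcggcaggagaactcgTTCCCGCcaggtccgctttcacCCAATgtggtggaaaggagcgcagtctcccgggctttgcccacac
Mcm3: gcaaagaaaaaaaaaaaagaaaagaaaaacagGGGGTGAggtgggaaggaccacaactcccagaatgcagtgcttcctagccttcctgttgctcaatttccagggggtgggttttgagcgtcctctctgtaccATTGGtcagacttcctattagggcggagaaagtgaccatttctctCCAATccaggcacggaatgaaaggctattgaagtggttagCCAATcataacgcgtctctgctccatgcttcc
Rrm1 holds 2 CCAAT boxes and 1 E2F-like element, Mcm3 3 CCAAT boxes and 1 sterol core, and Cenpe 1 CCAAT box. Among the 52 called mitosis members, 38 had a single listed start, and the CCAAT box was present in 28 of them (73.7%) against 34.7% of 22862 genes with a single start. CHR was present in 19 (50%) against 26% of all, and the E2F-like element in 5 (13.2%) against 5.63%. Of the 34 S phase members called, 24 had a single start, with a CCAAT box in 15 (62.5%), an E2F-like element in 9 (37.5%) and CHR in 6 (25%). That CHR share was near the 26% of all genes, and the sterol core was in 1 (4.17%) against 3.91% of all. A match is a description of the letters, not evidence of binding or of a cause.

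Ccna2, the cyclin of S phase and mitotic entry, stood at 4.83, 53.4, 41.9 and 38.8 CPM in day 4 replicates 1 to 4 and at 2.57, 4.19, 6.70 and 27.3 CPM on day 6. Day 4 replicate 1 lay among day 6 replicates 1 to 3, and day 6 replicate 4 lay below the other 3 day 4 libraries but far above the rest of its day. The 8-library change was -1.73 ± 0.63 (SE; adjusted p 0.244), and the 6-library change was -3.36 ± 0.37 (adjusted p 2.94e-05). Mki67, a protein of proliferating nuclei, had 21.4, 208, 175 and 175 CPM on day 4 and 15.7, 21.5, 35.7 and 123 CPM on day 6. Its order of libraries was the same kind, with 1 low library on day 4 and 1 high library on day 6. On chow Ccna2 stood at 1.16 to 3.01 CPM, on day 2 at 2.50 to 7.01 and on day 14 at 2.63 to 5.54, so day 4 replicates 2 to 4 and day 6 replicate 4 held more of it than any other library of the study.

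Foxm1, a transcription factor of mitotic genes, changed by -2.76 ± 0.33 in the 6-library comparison (adjusted p 5.9e-05) and by -1.50 ± 0.56 with all 8 (adjusted p 0.248). Cenpe had 3.12, 28.4, 27.1 and 21.2 CPM on day 4 and 2.22, 3.56, 3.91 and 18.1 CPM on day 6. Racgap1, which organises the cleavage furrow, fell by 2.37 ± 0.22, and Smc2, a condensin subunit, by 1.88 ± 0.18 on the log2 scale. Cdc25c, the phosphatase that releases mitotic entry, and Ncapg, another condensin subunit, were among the 10 largest falls, at -3.67 ± 0.66 and -3.40 ± 0.50. Depdc1a, which is expressed in dividing cells, was another, at -3.42 ± 0.48. Pttg1, which encodes securin, was the mitosis gene that rose, by 0.45 ± 0.12, from 21.6, 17.4, 18 and 18.1 CPM on day 4 to 22.9, 25.1, 25.3 and 20.8 CPM on day 6. Its call was lost under 3 alternative settings.

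In S phase, Mcm3 had 13.4, 42.2, 36.6 and 40.5 CPM on day 4 and 12.2, 10.9, 16.7 and 29 CPM on day 6. Only day 4 replicate 1 overlapped the low day 6 libraries, and day 6 replicate 4 stood between. The log2 change was -0.93 ± 0.29 with all 8 libraries (unadjusted p 0.00523, adjusted p 0.240) and -1.60 ± 0.14 without both (adjusted p 4.92e-06). Rrm1 fell by 1.44 ± 0.13, Mcm5, another helicase subunit, by 1.96 ± 0.24, and Dnmt1, the maintenance DNA methyltransferase, by 1.30 ± 0.10 in the 6-library comparison. Dnmt1 had 37.6, 85.9, 73.2 and 80.9 CPM on day 4 and 32.9, 28.8, 36.4 and 58.4 CPM on day 6, a narrower range than the mitotic genes.

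**Figure D3:**
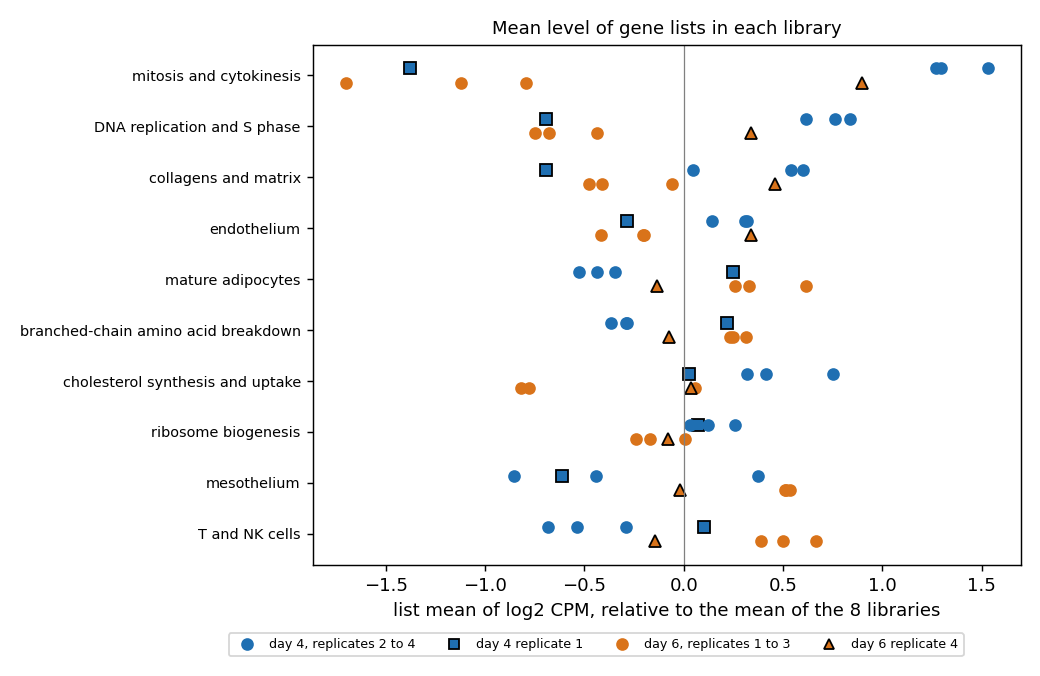
Points give the mean log2 CPM of each gene list in each library, relative to the mean of the 8 libraries, with day 4 in blue and day 6 in orange. For mitosis day 4 replicate 1 (-1.38) lies with day 6 replicates 1 to 3 (-1.70 to -0.79) and day 6 replicate 4 (0.90) near day 4 replicates 2 to 4 (1.27 to 1.53), while for ribosome biogenesis all day 4 libraries lie above all day 6 libraries.

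Matrix and vessel genes went the same way as division. In the 6-library comparison 15 of 32 collagen and matrix genes (46.9%) fell and 2 (6.25%) rose (median -0.74), where 7.99% of all genes fell and 6.63% rose. Of 18 laminin and basement membrane genes 6 (33.3%) fell (median -0.19), and 11 of 22 endothelial markers (50%) fell with none rising (median -0.56). With all 8 libraries none was called, and the medians were -0.27, 0.04 and -0.26. The endothelial markers summed to 1850.8 CPM in day 4 replicate 1, where the other day 4 libraries held 2692 to 3256. They summed to 3054 CPM in day 6 replicate 4, where the other day 6 libraries held 1711 to 1976. The part of fewer or more vessel cells in these results was not tested.

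Col6a3, a chain of the collagen VI around adipocytes, had 258, 826, 724 and 679 CPM on day 4 and 234, 389.9, 280.0 and 596 CPM on day 6. Day 4 replicate 1 sat within the low day 6 libraries and day 6 replicate 4 below, but next to, the high day 4 ones. The change was -0.73 ± 0.31 with all 8 (adjusted p 0.271) and -1.30 ± 0.23 without both (adjusted p 0.00115). Col4a1 and Col4a2, the main collagens of basement membranes, fell by 0.85 ± 0.14 and 0.93 ± 0.15, and Hspg2, the proteoglycan perlecan, by 0.82 ± 0.16. In Col4a1, at 1816, 4091, 4239 and 3771 CPM on day 4 and 1956, 2471, 2278 and 3987 CPM on day 6, the left-out day 6 library lay inside the day 4 range. Col1a1, the main fibrillar collagen chain, was not called in either comparison (-0.76 ± 0.30, adjusted p 0.0942 without both), nor was Sparc, a collagen-binding glycoprotein (-0.44 ± 0.18, adjusted p 0.115).

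The matrix genes that rose were Fbln1 and Dcn. Fbln1, which encodes fibulin-1, had 23.5, 21.6, 30.4 and 22.4 CPM on day 4 and 52.5, 45.1, 38.4 and 30.2 CPM on day 6, overlapping only where day 4 replicate 3 met day 6 replicate 4, and changed by 0.89 ± 0.25 without both (adjusted p 0.0235). Dcn, decorin, changed by 0.81 ± 0.22 (adjusted p 0.0210), a call lost under 6 alternative settings, and that of Fbln1 was lost under 4. Among 26 collagen-processing genes 4 fell and 1 rose without both. The crosslinking enzymes Lox and Loxl4 fell by 0.93 ± 0.14 and 1.14 ± 0.23, Loxl1 stood at -0.05 ± 0.16 (adjusted p 0.878), and Mmp9, a gelatinase, rose by 2.29 ± 0.54. The call of Mmp9 was lost under 3 alternative settings.

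Pecam1, an endothelial junction protein, had 184, 404, 410.1 and 352 CPM on day 4 and 216, 211, 171 and 411 CPM on day 6. Day 6 replicate 4 lay at the top of the day 4 range, and day 4 replicate 1 lay among the low day 6 libraries. Its change was -0.42 ± 0.25 with all 8 (adjusted p 0.406) and -0.96 ± 0.17 without both (adjusted p 0.00119). Cdh5, the endothelial cadherin, fell by 1.05 ± 0.18 and Tie1, an endothelial receptor kinase, by 1.03 ± 0.19. Of 16 smooth muscle and pericyte markers 3 fell: Acta2, smooth muscle actin, by 1.33 ± 0.27, the pericyte gene Rgs5 by 0.76 ± 0.16 and smoothelin, Smtn, by 0.78 ± 0.12. Of 22 progenitor markers 3 (13.6%, against 7.99% of all genes) fell and none rose: Cd34, Fap and Thy1, at -0.81 ± 0.21, -0.63 ± 0.19 and -1.05 ± 0.34. Their calls were lost under 2, 9 and 7 alternative settings. Pdgfra, the widely used progenitor receptor, was not called (0.78 ± 0.30, adjusted p 0.0928).

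Most mature adipocyte genes went the other way. Without both libraries 10 of 16 markers rose and none fell (median 0.65). With all 8 libraries 0 were called, 14 had a positive change and 2 a negative one (median 0.40). An unadjusted p under 0.05 was found for 9 (56.2%, against 16.3% of all genes). The 3 that separated the days (18.8%) were all higher on day 6, where 3.6% of all genes did. Lep, also on this list, had a negative change in both comparisons (-0.59 ± 0.31 and -0.92 ± 0.35) and was called in neither. The markers summed to 58557 CPM in day 4 replicate 1, where the other day 4 libraries held 33650.2 to 38049.5. They summed to 44812 CPM in day 6 replicate 4, where the other day 6 libraries held 62740.2 to 79056. In the list means day 4 replicate 1 was the lowest of its day for mitosis and the highest for adipocyte markers, and day 6 replicate 4 the highest of its day for mitosis and the lowest for adipocyte markers.

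Cfd, which encodes the complement protease adipsin, had 5764, 956, 1207 and 1188 CPM on day 4 and 11008, 7030.3, 4893 and 1020.1 CPM on day 6. Day 4 replicate 1 exceeded day 6 replicate 3, and day 6 replicate 4 lay within the range of day 4 replicates 2 to 4. The change was 1.39 ± 0.59 with all 8 libraries (adjusted p 0.269) and 2.77 ± 0.36 without both (adjusted p 9.85e-05). Adipoq, the hormone adiponectin, had 2947, 1253, 1776 and 1161 CPM on day 4 and 3672, 4789, 3313 and 2038 CPM on day 6, with changes of 0.95 ± 0.31 and 1.49 ± 0.28 (adjusted p 0.240 and 0.00206). Day 6 replicate 4 overlapped day 4 only through day 4 replicate 1. Car3, a carbonic anhydrase abundant in adipocytes, rose by 1.19 ± 0.24 without both.

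Pck1, which supplies glycerol for triglyceride synthesis in adipocytes, separated the days in all 8 libraries, at 970.1, 451, 683 and 494 CPM on day 4 and 2318, 2203, 1027 and 1039 CPM on day 6. Its change was 1.34 ± 0.35 with all 8 (unadjusted p 0.00113, adjusted p 0.240) and 1.77 ± 0.38 without both (adjusted p 0.00494). Pnpla2, the triglyceride lipase ATGL, separated them too, at 1528, 1209.5, 928 and 989.6 CPM on day 4 and 1954, 3054, 1955 and 1594 CPM on day 6, with changes of 0.88 ± 0.28 and 1.16 ± 0.31 (adjusted p 0.240 and 0.0199). In both, day 4 replicate 1 was the highest of its day, and day 6 replicate 4 was the lowest of its day in Pnpla2 and the second lowest in Pck1. Aqp7, the glycerol channel of adipocytes, was the third, at 138, 113, 108 and 109 CPM on day 4 and 157, 185, 144 and 142 CPM on day 6 (0.43 ± 0.12, adjusted p 0.240 with all 8, and 0.56 ± 0.13, adjusted p 0.00738 without both). The 6-library calls of Pck1 and Pnpla2 were lost under 1 and 3 alternative settings.

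**Figure D4:**
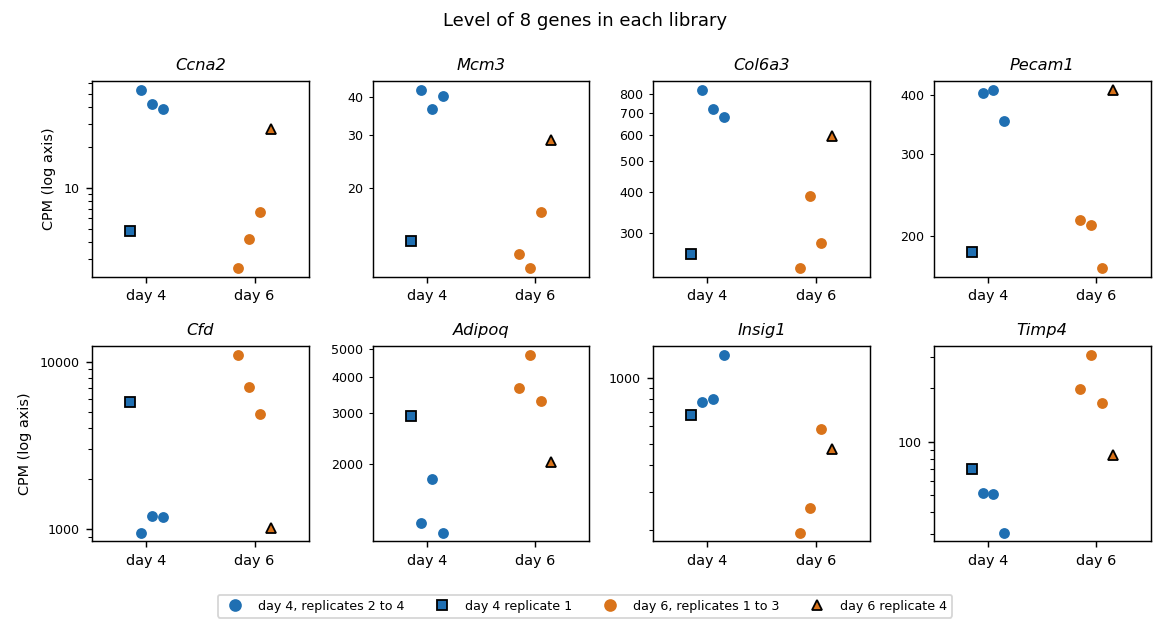
Points give the CPM of 8 genes in each library on log axes, by day, with day 4 replicate 1 as a square and day 6 replicate 4 as a triangle. In Ccna2, Mcm3, Col6a3, Pecam1, Cfd and Adipoq the days overlap through these libraries, while in Insig1 and Timp4 all libraries of day 6 lie on one side of all libraries of day 4.

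Among the metabolic lists, branched-chain amino acid breakdown had the most members rise. Of its 20 genes 14 rose and none fell without both libraries (median 0.54). With all 8 libraries 19 of 20 had a positive change (median 0.33) and none was called. An unadjusted p under 0.05 was found for 9 (45%, against 16.3% of all genes). Ivd, isovaleryl-CoA dehydrogenase, had 308, 169, 196 and 179 CPM on day 4 and 359, 396, 353 and 235 CPM on day 6. Its day 4 replicate 1 exceeded day 6 replicate 4, which is the only overlap, and it changed by 0.65 ± 0.22 with all 8 (adjusted p 0.240) and 1.03 ± 0.19 without both (adjusted p 0.00214). Aldh6a1, methylmalonate semialdehyde dehydrogenase, rose by 1.14 ± 0.22 and Dbt, a core subunit of the branched-chain keto acid dehydrogenase, by 0.75 ± 0.13.

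Of 21 lipolysis and lipid droplet genes 4 rose and none fell: Adrb3, Pnpla2, Lipe and Pde3b. Adrb3, the beta-adrenergic receptor of adipocytes, had 764, 395, 405 and 319 CPM on day 4 and 1046, 1298, 792 and 621 CPM on day 6, where day 4 replicate 1 exceeded day 6 replicate 4. Pde3b, the phosphodiesterase through which insulin limits lipolysis, rose by 1.04 ± 0.20. In fatty acid oxidation 4 of 28 genes rose, among them Acadm and Etfa by 0.47 ± 0.14 and 0.46 ± 0.13. The calls of Acadm and Etfa were lost under 5 and 4 alternative settings. In the citrate cycle 2 of 28 genes rose (7.14%: Aco1 and Suclg2) and in the nuclear-encoded respiratory chain 4 of 55 (7.27%), about the share of all genes that rose (6.63%). Ndufs7, Ndufa6 and Ndufb3, subunits of respiratory complex I, rose by 0.47 ± 0.12, 0.32 ± 0.09 and 0.48 ± 0.15, and lost the call under 1, 6 and 5 alternative settings. None of 15 mitochondrially encoded RNAs was called, with mt-Co1 and mt-Cytb at 0.32 ± 0.23 and 0.27 ± 0.23 (adjusted p 0.379 and 0.480).

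Insulin signalling and glucose transporter vesicle genes gave 8 rises and 2 falls among 30 without both libraries. Slc2a4, the insulin-responsive transporter GLUT4, had 255, 154, 182 and 179 CPM on day 4 and 209.6, 285, 246 and 176 CPM on day 6 and changed by 0.53 ± 0.16 (adjusted p 0.0347), and by 0.25 ± 0.17 with all 8 (adjusted p 0.458). Its call was lost under 6 alternative settings. Both left-out libraries lay inside the other day's range. Irs1, the insulin receptor substrate, rose by 0.88 ± 0.20, and the vesicle proteins Sort1 and Vamp2 by 0.62 ± 0.13 and 0.57 ± 0.13. Trarg1, which traffics with GLUT4, was not called (-0.17 ± 0.14, adjusted p 0.478). In glycolysis the muscle-type enolase Eno3 and Pfkfb1, a regulator of glycolytic flux, rose by 1.12 ± 0.28 and 0.67 ± 0.19, and hexokinase Hk1 fell by 0.52 ± 0.15, a call lost under 6 settings. The calls of Eno3 and Pfkfb1 were lost under 1 and 4.

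Cholesterol synthesis and uptake genes had lower values on day 6. Of 25 cholesterol synthesis and uptake genes all 25 had a negative change with all 8 libraries (median -0.77), and none was called. An unadjusted p under 0.05 was found for 16 (64%, against 16.3% of all genes). The days were separated without overlap by 5, all lower on day 6, where 3.07% of all genes did. Without both libraries 7 (28%, against 7.99% of all genes) fell and none rose (median -1.03). The list mean of day 4 replicate 1 (0.02) and day 6 replicate 4 (0.04) lay between the other day 4 libraries (0.32 to 0.75) and day 6 replicates 1 and 2 (-0.82 and -0.78), next to day 6 replicate 3 (0.06). Insig1, the sterol-regulated retention protein of the ER, had 674, 779, 806 and 1285 CPM on day 4 and 194, 253, 585 and 469.7 CPM on day 6. All day 6 libraries were lower, yet the change was -1.24 ± 0.47 with all 8 (adjusted p 0.253) and -1.48 ± 0.58 without both (adjusted p 0.0973), called in neither.

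Sqle, Msmo1 and Nsdhl, enzymes of cholesterol synthesis, also separated the days without overlap, and of these Msmo1 was called without both. Stard4, a sterol carrier, fell by 1.26 ± 0.27 without both. Hmgcs1, an early enzyme of the pathway, was not called, at -0.50 ± 0.40 (adjusted p 0.439).

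None of 24 fatty acid synthesis and desaturation genes was called in either comparison. Fasn, fatty acid synthase, had 10735, 7499, 10182 and 11321 CPM on day 4 and 4427, 3846, 11643 and 6689.7 CPM on day 6, and the highest value of all 8 was in day 6 replicate 3. Its change was -0.54 ± 0.57 without both (adjusted p 0.574), and those of Acly and Scd1, ATP citrate lyase and the main desaturase, were -0.79 ± 0.55 and -0.40 ± 0.29 (adjusted p 0.363 and 0.386). Of 27 genes of fatty acid uptake and triglyceride synthesis 5 rose and 4 fell. Acsl3, an acyl-CoA synthetase of lipid droplets, separated the days at 30.5, 29.4, 31.3 and 38 CPM on day 4 and 13.4, 11.1, 20.8 and 23.4 CPM on day 6 (-0.92 ± 0.23, unadjusted p 0.000806, adjusted p 0.240 with all 8). Without both it fell by 1.15 ± 0.26, while Mogat1, a monoacylglycerol acyltransferase, rose by 1.65 ± 0.25.

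Among 23 adipokine and expansion genes 4 rose and 3 fell without both. Agt, angiotensinogen, rose by 1.73 ± 0.33 beside Adipoq and Cfd, and Mest, a gene used as a marker of fat expansion, fell by 1.46 ± 0.33. Mest had 231, 729, 688 and 723 CPM on day 4 and 391, 131, 256 and 478 CPM on day 6, with 3 high day 4 libraries and day 6 replicate 4 next below them. Lep, leptin, had 2032, 2677, 2795 and 3075 CPM on day 4 and 927, 1399, 2187 and 2535 CPM on day 6 and was not called (-0.59 ± 0.31, adjusted p 0.343 with all 8, and -0.92 ± 0.35, adjusted p 0.0824 without both). Npr3, the natriuretic peptide clearance receptor, was not called (-0.35 ± 0.34, adjusted p 0.542). Of 22 adipogenic transcription factors 2 rose (9.09%, near the 6.63% of all genes): Ebf1 and Ebf2, by 0.79 ± 0.11 and 1.08 ± 0.28. The call of Ebf2 was lost under 3 alternative settings. The master regulators Pparg and Cebpa were not called (0.07 ± 0.18 and 0.32 ± 0.16, adjusted p 0.846 and 0.209).

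Ribosome biogenesis genes had about the same change with and without the 2 libraries. Of 27 genes 25 had a negative change with all 8 libraries (median -0.26), and 12 (44.4%, against 16.3% of all genes) an unadjusted p under 0.05. The days were separated by 10 with all day 6 libraries lower, where 3.07% of all genes did. The median of the 27 genes without both was also -0.26, and 3 fell. Nop2, a nucleolar RNA methyltransferase, had 34.8, 30.05, 32.6 and 36.8 CPM on day 4 and 23.9, 22.1, 27.3 and 24.3 CPM on day 6, with no overlap and neither left-out library at the edge of its day. Its change was -0.47 ± 0.12 with all 8 (unadjusted p 0.000857, adjusted p 0.240) and -0.46 ± 0.15 without both (adjusted p 0.0439). Nop56, a core protein of box C/D particles, had 39.996, 39.7, 48.4 and 50.02 CPM on day 4 and 31.3, 31.1, 34 and 36.2 CPM on day 6, and Ncl, nucleolin, 253, 268, 264 and 297 and 224, 198, 234 and 237 CPM. Both separated the days and fell without both, by 0.52 ± 0.14 and 0.34 ± 0.11. The 6-library calls of Nop2, Nop56 and Ncl were lost under 8, 5 and 9 alternative settings. Of 76 cytosolic ribosomal proteins 3 fell (3.95%, below the 7.99% of all genes): Rplp0, Rpl35 and Rpl29, by 0.31 ± 0.09, 0.32 ± 0.10 and 0.27 ± 0.09. These calls were lost under 8, 9 and 9 alternative settings.

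**Figure D5:**
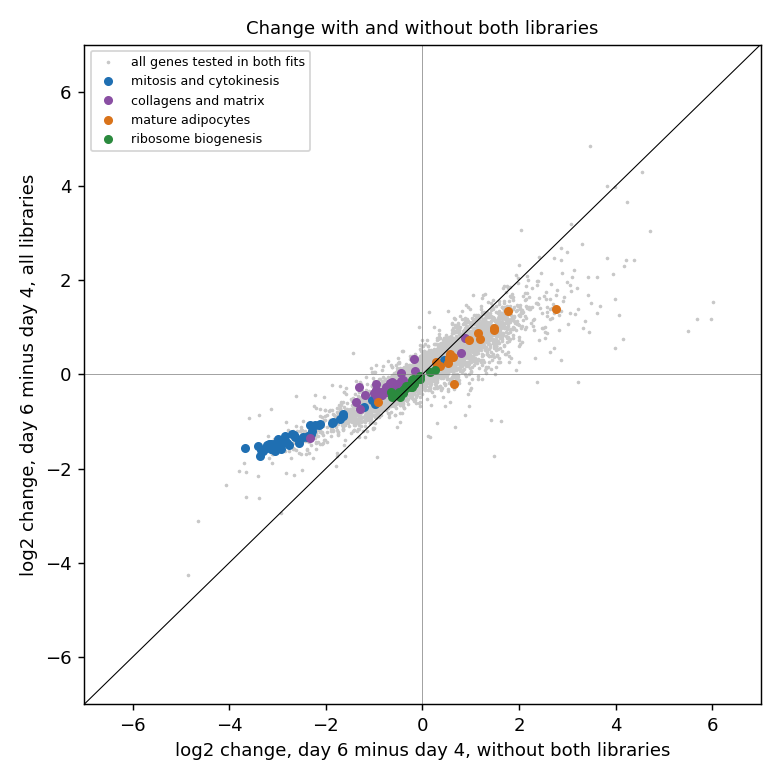
Each point is a gene, with its log2 change (day 6 minus day 4) in the 6-library comparison on the x axis and in the 8-library comparison on the y axis, and the diagonal marks equal changes. All mitosis genes but Pttg1 lie above the diagonal (list medians -2.83 and -1.45), most mature adipocyte genes below it (0.65 and 0.40), and ribosome biogenesis genes along it (-0.26 and -0.26).

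Mesothelial markers also had about the same median with and without the 2 libraries, though their libraries were uneven. The list mean of day 6 replicate 4 (-0.018) lay below the others of its day (0.51 to 0.53). That of day 4 replicate 3 (0.37) lay above the others of its day (-0.85 to -0.44). The 18 measured markers had a median of 0.80 with all 8 libraries, and 17 of them were positive. An unadjusted p under 0.05 was found for 11 (61.1%, against 16.3% of all genes), and 1 (5.56%, against 6.67%) separated the days. Without both the median was 0.84 and 4 rose (22.2%, against 6.63% of all genes). Summed marker CPM ran from 702 to 1135 on day 4 and from 1053 to 1289 on day 6. Upk1b, a mesothelial uroplakin, had 8.01, 3.99, 16 and 7.98 CPM on day 4 and 18.7, 19.8, 23.2 and 12.9 CPM on day 6, overlapping through day 4 replicate 3. It changed by 1.08 ± 0.29 with all 8 (unadjusted p 0.00161, adjusted p 0.240) and 1.17 ± 0.34 without both (adjusted p 0.0286). Rspo1, a Wnt co-activator, and Wt1, a mesothelial transcription factor, rose by 1.06 ± 0.28 and 1.05 ± 0.30, while Msln, mesothelin, was not called (0.76 ± 0.43, adjusted p 0.258). The calls of Upk1b, Rspo1 and Wt1 were lost under 8, 2 and 5 alternative settings.

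Among immune genes, macrophage markers gave few calls (3.85%, against 14.6% of all genes). Of 26 macrophage markers 1 rose and none fell without both, and Adgre1, a surface receptor of macrophages, stood at -0.06 ± 0.23 (adjusted p 0.916). The one that rose, Gpnmb, a gene of lipid-laden macrophages, had 102, 11.1, 5.10 and 7.52 CPM on day 4 and 20.001, 20.5, 22.7 and 5.65 CPM on day 6. A single library, day 4 replicate 1, was far above all others, and day 6 replicate 4 lay within day 4 replicates 2 to 4. The direction depended on these libraries: -0.96 ± 0.66 with all 8 (adjusted p 0.465) and 1.41 ± 0.36 without both (adjusted p 0.0165). All 22 T and NK cell markers tested with all 8 libraries were positive (median 0.65), and 3 of 23 (13%, against 6.63% of all genes) rose without both: Cd3e, Trbc2 and Ncr1, by 2.03 ± 0.51, 1.68 ± 0.55 and 1.77 ± 0.44. Their calls were lost under 1, 10 and 2 alternative settings. They rest on 5, 11 and 10 reads over day 4 replicates 2 to 4, with Cd3e at 0.445, 0.210, 0.444 and 0.131 CPM on day 4 and 0.690, 1.03, 1.02 and 0.251 CPM on day 6.

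Of 21 chemokine and cytokine genes 4 fell and 2 rose without both (28.6% called, against 14.6% of all genes). Ccl2, a monocyte attractant, had 7.50, 41.6, 24.9 and 28.9 CPM on day 4 and 3.14, 10.6, 8.28 and 37.6 CPM on day 6, so day 6 replicate 4 was the second highest of all 8, and Ccl2 fell by 2.12 ± 0.49 without both (adjusted p 0.00959). Ccl8, a related chemokine, and Nos2, inducible nitric oxide synthase, fell by 1.56 ± 0.30 and 1.50 ± 0.36. Of 9 neutrophil and mast cell markers 2 fell and 1 rose without both (33.3% called). S100a8, a neutrophil calprotectin subunit, fell by 2.40 ± 0.54, the mast cell receptor Kit fell by 1.12 ± 0.29, and the mast cell protease Cpa3 rose by 1.03 ± 0.30. The calls of Kit and Cpa3 were lost under 3 and 7 alternative settings. The interferon-induced genes Ifih1 and Igtp rose by 0.63 ± 0.14 and 0.84 ± 0.24, 2 of the 20 on that list, and the call of Igtp was lost under 6 settings.

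Lists for cell types that a fat pad holds in small numbers, or for blood and other tissues, were short and differed in their share of calls. Of 8 pancreas and liver genes 2 rose without both (25%, against 6.63% of all genes). With all 8 libraries 4 of the 6 tested (66.7%, against 16.3%) had an unadjusted p under 0.05. The days were separated by 2 (33.3%, against 6.67%), 1 in each direction. Of the 6 tested, 4 had a positive change and 2 a negative one. Of 3 skeletal muscle genes 1 fell without both (33.3%, against 7.99%). None of 12 B cell markers was called without both libraries. Ighm, the immunoglobulin mu chain, had 1097, 472, 508 and 329 CPM on day 4 and 849, 1328, 853 and 719 CPM on day 6 (1.21 ± 0.51, adjusted p 0.125), and Igkc, the kappa chain, stood at 0.94 ± 1.05 (adjusted p 0.597). The haemoglobin genes Hbb-bs and Hba-a1, which have near-identical copies, were not called (0.44 ± 0.41 and 0.24 ± 0.40, adjusted p 0.512 and 0.740). Of the ductal epithelial genes, Lrp2, an endocytic receptor, and Muc1, a surface mucin, were not called (1.12 ± 1.19 and 0.86 ± 0.51, adjusted p 0.577 and 0.276). Nefl, a neurofilament chain, was lower without both libraries (adjusted p 0.0456) at 0.0636, 1.05, 0.888 and 0.327 CPM on day 4 and 0, 0.119, 0 and 0.659 CPM on day 6, with 3 reads over day 6 replicates 1 to 3, so no fold is given. Its call was lost under 7 alternative settings.

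Among the stress lists, 24 hypoxia, metallothionein and antioxidant genes held more calls than genes at large. Of these 5 rose and 2 fell without both (29.2% called, against 14.6% of all genes). None was called with all 8 libraries, 11 (45.8%, against 16.3%) had an unadjusted p under 0.05, and 6 (25%, against 6.67%) separated the days, 3 in each direction. Without both the rises and falls included the glutathione peroxidases Gpx3 and Gpx1 at 1.60 ± 0.36 and 1.28 ± 0.31 and heme oxygenase, Hmox1, at -0.77 ± 0.19. Of 29 lysosome and autophagy genes 2 rose and 2 fell (6.9% each), about the shares of all genes (6.63% and 7.99%). The membrane protein Lamp2 and the autophagosome protein Gabarapl1 rose by 0.40 ± 0.11 and 0.77 ± 0.20, and Trp53inp2, an autophagy regulator, fell by 0.67 ± 0.16. Their calls were lost under 3, 4 and 2 alternative settings. Dnajb11, an ER chaperone, was the single gene to fall among 26 of the unfolded protein response, by 0.39 ± 0.10, a call lost under 6 settings. In the clock list of 19 Cry1 fell by 0.80 ± 0.25, a call lost under 8 settings, and Per2 was not called (0.42 ± 0.43, adjusted p 0.558), and 0 of 20 immediate early genes were called, with Klf6 and Zfp36 at 0.10 ± 0.15 and 0.45 ± 0.22 (adjusted p 0.696 and 0.184). Alas1, the first enzyme of heme synthesis, was not called (-0.10 ± 0.19, adjusted p 0.773). In the activin and TGF-beta list 1 of 28 rose, the adipocyte activin receptor Acvr1c by 0.97 ± 0.23, and 4 fell, among them Acvr1b and Fstl1 at -0.59 ± 0.14 and -0.999 ± 0.29, the latter call lost under 6 settings.

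The largest rises without both libraries included Nnat, neuronatin, at 551, 85.5, 48.4 and 49.7 CPM on day 4 and 1045, 1552, 692 and 385 CPM on day 6. Its day 4 replicate 1 lay between day 6 replicates 3 and 4, and the change was 4.17 ± 0.87 (adjusted p 0.00484) against 2.31 ± 0.84 with all 8 (adjusted p 0.243). Ces1f, a carboxylesterase of a gene cluster with near-identical copies whose reads may be split, had 115, 12.6, 15.8 and 11 CPM on day 4 and 109, 209, 116 and 33 CPM on day 6 (3.50 ± 0.46). Pbld2, Cyp2f2, Inmt, Alpk3 and Siglech were also among them, at 4.21 ± 0.73, 3.82 ± 0.87, 3.61 ± 0.96, 3.38 ± 0.56 and 3.22 ± 0.56. Pbld2, Alpk3 and Siglech had 6, 4 and 7 reads over day 4 replicates 2 to 4, so the size of their changes is uncertain. Inmt was uneven on day 6, at 64.3, 8.22 and 9.95 CPM in replicates 1 to 3, against 1.26, 1.78 and 2.94 CPM in day 4 replicates 2 to 4. Its call was lost under 8 alternative settings. Among them were the fits without day 6 replicate 1 and without day 4 replicate 2, 3 or 4. Ncam2, a neural cell adhesion molecule, had 1 read over day 4 replicates 2 to 4 and 3.12 CPM in day 4 replicate 1, so no fold is given.

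The largest falls included Slc5a7, the choline transporter, at 15.3, 70.4, 31.1 and 62 CPM on day 4 and 2.53, 1.86, 6.23 and 23.9 CPM on day 6, with both left-out libraries between the extremes of the 2 days (-4.06 ± 0.75, adjusted p 0.00220). Acoxl, an acyl-CoA oxidase-like gene, had 2.10, 6.93, 5.55 and 7.65 CPM on day 4 and 0.575, 0.672, 0.651 and 2.86 CPM on day 6 (-2.15 ± 0.59 with all 8, adjusted p 0.240, and -3.41 ± 0.55 without both). Pkp1, a desmosomal plakophilin that the filter kept only without both libraries, had 0.127, 5.88, 3.99 and 7.52 CPM on day 4 and 0.0383, 0.0395, 0.186 and 0.596 CPM on day 6. Gsg1l, Wnt8b, Lipf and Myh7b were the other low-level genes among the 10, at -3.81 ± 0.92, -3.68 ± 0.76, -3.65 ± 0.69 and -3.39 ± 0.92 (the calls of Gsg1l and Myh7b were lost under 3 and 5 settings), and Casq1, the skeletal muscle calsequestrin, fell by 2.21 ± 0.47.

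The following genes had the smallest unadjusted p with all 8 libraries and were chosen after their values were seen, and all have the same adjusted p of 0.240. Epm2a, the glycogen phosphatase laforin, had 12.7, 10.1, 10.4 and 9.55 CPM on day 4 and 17.9, 20.4, 17.5 and 14.7 CPM on day 6 (0.71 ± 0.15, unadjusted p 0.000141). Trim5, an antiviral restriction factor of a family with close copies, had 3.31, 2.73, 3.33 and 2.94 CPM on day 4 and 6.44, 7.23, 5.30 and 5.33 CPM on day 6 (0.98 ± 0.21, unadjusted p 0.000159). Timp4, a metalloproteinase inhibitor of adipose tissue, had 70.1, 51.1, 50.8 and 30.6 CPM on day 4 and 197, 309.7, 165 and 84 CPM on day 6 (1.90 ± 0.41, unadjusted p 0.000219). In each of the 3 every day 6 library exceeded every day 4 library, and the gap was narrowest at day 6 replicate 4 in Epm2a and Timp4.

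Alb, the plasma protein albumin, had 9.03, 7.14, 10.2 and 8.17 CPM on day 4 and 42.3, 20.6, 20.3 and 10.2 CPM on day 6, with day 6 replicate 4 just above the highest day 4 library (1.44 ± 0.31, unadjusted p 0.000198). Pwwp2b, a chromatin-binding protein, was lower on day 6 in every library, at 14.7, 16.8, 15.8 and 18.9 CPM on day 4 and 6.21, 6.36, 9.21 and 11.3 CPM on day 6 (-1.003 ± 0.22, unadjusted p 0.000232). Chsy1, a chondroitin synthase, and Exoc3l2, an exocyst-like gene, were lower too (-0.96 ± 0.22 and -1.04 ± 0.25), as was the sodium pump isoform Atp1a4 (-1.47 ± 0.35). Sult1a1, a sulfotransferase, Poglut1, which glycosylates Notch, and Sdr39u1 were higher (1.22 ± 0.30, 0.38 ± 0.09 and 0.51 ± 0.12). All but Atp1a4 of these separated the days in all 8 libraries. Sim2, a transcription factor, had 2 reads over the 4 day 4 libraries and 0.881, 1.15, 0.558 and 0.188 CPM on day 6, so no fold is given.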

How the data were processed

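RNA-seq was made from epididymal fat of 20 mice (5 days of 4 libraries). The deposited table holds the authors' raw counts of reads per gene, whole numbers for 39179 Ensembl IDs, 37607 of which had a symbol in the reference table of names. Tools listed in the submitters' processing notes, with no role given, are featureCounts, STAR, CASAVA, R (3.0) and limma, and the genome build, annotation and strand setting of the counts are not given in the sources used here, so antisense and near-identical genes cannot be told apart.

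The counts were analysed in R 4.3.3 with edgeR 4.0.16: filterByExpr (minimum count 10, minimum total 15), TMM scaling, and the robust quasi-likelihood F test with the day as the only term. The fit over 20 libraries had 15 residual degrees of freedom and a common biological coefficient of variation of 0.209, and the fit over 18 libraries, without day 4 replicate 1 and day 6 replicate 4, had 13. At least 99.5% of each library's reads lay on tested genes. Benjamini-Hochberg adjustment ran over all tested genes, and the SE follows from the F statistic. List means use log2 CPM with a prior count of 2. The script was tested on simulated counts in which 200 genes were changed.

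Alternatives were other scaling and filters, DESeq2 1.42.0, limma-voom (limma 3.58.1) with and without quality weights, a fit of days 4 and 6 alone, the replicate number as a block, and each library left out. Named genes were the 10 largest rises and falls among called genes in each fit (mean of at least 1 CPM), up to 3 called members of each list by p or else up to 2 by level, and a panel taken whatever their p, and some genes that this rule names are not reported here. Fbln1, Dcn, Pttg1 and Aqp7 were added after their values were seen, as were the genes with the smallest p. The libraries, lists, panel and tests were chosen with earlier results of these data known. Promoters came from RefSeq, GRCm38.p6.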

Additional observations from a re-analysis of the deposited data

Results flagged for a closer look

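Each day held 4 libraries, so a library was looked at again where its gap to the nearest other library of its day was above Dixon's 95% critical value for 4 libraries, as a share of the day's range. Of 390 groups tested, for the genes named in the text and the gene lists on each day, 48 (12.3%) met this. For groups chosen without regard to their values chance gives about 1 in 20, but most of these genes were named because they were called without day 4 replicate 1 and day 6 replicate 4, which favours genes whose other 3 libraries of a day lie close together, so that rate does not apply here. Day 4 replicate 1 was the library in 32 of them and day 6 replicate 4 in 12. The genes are not independent of each other, and the cause was not tested.

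In day 4 replicate 1 the list mean (centred log2 CPM) was below the rest of its day for DNA replication and S phase at -0.69 (others 0.61 to 0.84) and mitosis and cytokinesis at -1.38 (others 1.27 to 1.53). In day 4 replicate 1 the list mean (centred log2 CPM) was above the rest of its day for branched-chain amino acid breakdown at 0.22 (others -0.37 to -0.28). In day 4 replicate 1 the log2 CPM was below the rest of its day for Acta2 at 5.72 (others 8.09 to 8.17), Ccna2 at 2.31 (others 5.28 to 5.74), Cdc25c at -0.83, Cenpe at 1.69, Col4a1 at 10.83, Col4a2 at 10.32 and Col6a3 at 8.01. It was lower in the same way for Depdc1a at -1.21 (others 1.97 to 2.53), Foxm1 at 2.21 (others 5.09 to 5.46), Hspg2 at 9.92, Loxl4 at 2.41, Mcm3 at 3.76, Mcm5 at 3.34 and Mest at 7.85. It was lower in the same way for Mki67 at 4.43 (others 7.45 to 7.70), Ncapg at 0.87 (others 3.46 to 3.72), Racgap1 at 2.94, Rrm1 at 4.34 and Wnt8b at -2.04. In day 4 replicate 1 the log2 CPM was above the rest of its day for Acadm at 9.07 (others 8.37 to 8.48), Aldh6a1 at 9.13 (others 8.04 to 8.16), Ces1f at 6.85, Cfd at 12.49, Ebf1 at 7.23, Mogat1 at 5.26 and Ncam2 at 1.69. It was higher in the same way for Pde3b at 8.82 (others 7.90 to 8.02), Sort1 at 9.45 (others 9.01 to 9.05) and Vamp2 at 6.19.

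In day 6 replicate 4 the list mean (centred log2 CPM) was below the rest of its day for mesothelium at -0.018 (others 0.51 to 0.53) and heme synthesis at -0.11 (others -0.00053 to 0.019). In day 6 replicate 4 the list mean (centred log2 CPM) was above the rest of its day for chemokines and inflammatory cytokines at 0.31 (others -0.17 to -0.10). In day 6 replicate 4 the log2 CPM was below the rest of its day for Gpnmb at 2.53 (others 4.33 to 4.51), Irs1 at 4.64 (others 5.60 to 5.68), Ndufs7 at 5.70, Rspo1 at 3.67 and Sdr39u1 at 4.67. In day 6 replicate 4 the log2 CPM was above the rest of its day for Acoxl at 1.57 (others -0.53 to -0.34), Hk1 at 5.54 (others 5.06 to 5.11), Rgs5 at 8.60 (others 7.73 to 7.74) and Smc2 at 4.84 (others 3.24 to 3.47).

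In day 4 replicate 4 the log2 CPM was below the rest of its day for Adgre1 at 4.66 (others 5.64 to 5.75). In day 6 replicate 1 the list mean (centred log2 CPM) was above the rest of its day for B cells at 1.51 (others -0.50 to -0.28). In day 6 replicate 1 the log2 CPM was below the rest of its day for Muc1 at -0.46 (others -0.10 to -0.069) and Npr3 at 10.11 (others 10.72 to 10.84).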

How the results depend on the processing

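With all 8 libraries the count of called genes stayed at 0 under DESeq2's size factors in edgeR, library size alone, no filter, a stricter filter, limma-voom, and a fit of days 4 and 6 alone. It was 53 with DESeq2, 2046 (876 higher, 1170 lower) with limma-voom and sample quality weights, which weighted day 4 replicate 1 at 0.355 and day 6 replicate 4 at 0.504 against 0.738 to 1.84 for the other 6 libraries, and 2249 without both. Leaving out 1 library gave 0 to 737.

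Without both libraries the processing alternatives gave 1700 to 2715 calls, and leaving out 1 further library gave 1241 to 2035. Of 123 named genes called there, 52 lost the call without 1 further library, 35 under another processing setting, and none changed sign. The shallow day 4 replicates 2 and 3 limit what can be seen at low levels.

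The replicate numbers are no pairing in the labels, and deviations of same-numbered libraries correlated at 0.516, -0.128, -0.084 and 0.249 across genes, so they were not taken as pairs, and only number 1 correlated best with itself. With the replicate block edgeR called 0 genes with all 8 libraries and 1 in the fit of days 4 and 6 alone. Without both libraries the replicate block gave 2067 and 2140.

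Signs turned in genes with small changes or 1 extreme library, and Gpnmb alone was called under the turned sign. The cause was not tested. With all 8 libraries Adgre1 was 0.031 with voom, 0.012 with quality weights and -0.28 to 0.043 with 1 library left out, and Col1a1 was -0.58 to 0.0082 with 1 library left out. Cpa3 was -0.29 to 0.80 with 1 library left out, and Fap was 0.0011 with voom and -0.43 to 0.033 with 1 library left out. Gpnmb was 0.70 with quality weights, 1.41 without both libraries and -1.31 to 1.11 with 1 library left out, and Hba-a1 was 0.24 without both libraries and -0.71 to 0.031 with 1 library left out. Hbb-bs was 0.061 with quality weights, 0.44 without both libraries and -0.57 to 0.24 with 1 library left out, and Igkc was -0.24 with voom, -0.054 with the replicate block, -0.12 with the replicate block in days 4 and 6 alone, -0.17 with quality weights and -1.18 to 0.72 with 1 library left out. Inmt was -0.51 to 3.20 with 1 library left out, and Klf6 was -0.021 to 0.12 with 1 library left out. Pparg was 0.075 with quality weights, 0.073 without both libraries and -0.20 to 0.077 with 1 library left out. Without both Adgre1 was 0.14 with voom and -0.32 to 0.13 with 1 library left out, and Alas1 was -0.19 to 0.062 with 1 library left out. Hba-a1 was -0.060 with the replicate block, -0.083 with the replicate block in days 4 and 6 alone and -0.19 to 0.53 with 1 library left out, and Igkc was -0.35 with the replicate block, -1.20 with the replicate block in days 4 and 6 alone and -1.15 to 1.43 with 1 library left out. Loxl1 was -0.15 to 0.046 with 1 library left out, and Pparg was -0.10 to 0.22 with 1 library left out. Trarg1 was 0.026 with the replicate block in days 4 and 6 alone.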
